A study of Mus musculus with 96 samples.

Results

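10 genes of the Hsp90 chaperone system were examined in single EL4 cells with and without an shRNA against Ctcf. They were the co-chaperone gene Ptges3, the cytosolic Hsp90 genes Hsp90aa1 and Hsp90ab1, the Hsp70 gene Hspa8, the Hsp110 genes Hspa4 and Hsph1, and the Hsp90 co-chaperone genes Stip1, Ahsa1, Fkbp4 and Cdc37. The rows of the deposited table with these symbols were taken, which gave 10 of 24057 genes. Ptges3 was selected on its measured values, since it was higher in both knockdown cultures, so its change is given as a description and was not tested. The other 9 are its partners in the same chaperone system. All 10 passed the filter on low values (log2(TPM + 1) above 1 in at least 2 cells), which left 11980 genes in the whole table.

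EL4 is a T lymphoma cell line from a C57BL/6 mouse (C57BL/6 N in the study's methods), and every culture was infected with viral particles encoding GFP and an shRNA and sorted for GFP before capture. The WT cultures carried an shRNA against luciferase (shLuc), and the CTCF-KD cultures carried an shRNA against Ctcf (shCTCF). WT 1 and CTCF-KD 1 made up experiment 1, and WT 2 and CTCF-KD 2 made up experiment 2. Each culture filled 1 Fluidigm C1 circuit, from which 24 cells of the best quality were sequenced, so culture, circuit and condition cannot be told apart. Which Ctcf hairpin each CTCF-KD culture carried is not given in the sources used here. The culture was taken as the replicate (n = 2 per condition), and the number of cells gives the spread within a culture. P-values rest on these cultures alone and do not measure the spread between cells. In limma the variance of each gene was drawn toward a trend over all genes tested. An SE or p-value from limma is thus not the spread of that gene alone.

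After 1 cell of WT 2 with 81 genes was left out, 24, 23, 24 and 24 cells remained in WT 1, WT 2, CTCF-KD 1 and CTCF-KD 2, with 3232422 to 6192121 recovered reads per culture. The median number of genes per cell was 4771 and 4635 in the WT cultures against 6172.5 and 5656 in the CTCF-KD cultures, and it remained higher in CTCF-KD (5227.5 and 5233 against 4152.5 and 3953) when each cell was thinned to 80000 reads. Ctcf, the targeted gene, had a mean of 60.3 TPM in WT 1, 37.1 in WT 2, 15.96 in CTCF-KD 1 and 44.9 in CTCF-KD 2. The transcript was thus lower in the knockdown of experiment 1 and not lower in that of experiment 2, and directions below that rest on the culture labelled CTCF-KD 2 carry this limit. Per the study's methods, cell populations had been checked for CTCF knockdown by RT-qPCR and Western blotting before capture. The study reports lower CTCF mRNA and protein in both shCTCF populations than in shLuc, and those measurements were not analysed here. The 9 T cell markers examined were detected, with summed levels of 8262 and 8634 TPM in WT and 6130 and 6439 TPM in CTCF-KD, whereas B cell, myeloid, erythroid and fibroblast markers summed to at most 4.13, 3.60, 0 and 1.44 TPM. The 2 detected myeloid markers, Csf1r and Itgam, were higher in both CTCF-KD cultures at these levels, and Lyz2 and Adgre1 were at 0, as were 3 of 4 B cell markers. The part of these markers and of the gene number in the results below was not tested.

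Hsp90 is an ATP-driven chaperone that holds kinases, steroid receptors and other client proteins in a form that can be activated. Clients reach it from Hsp70 through the adaptor Stip1 (Hop) or, for kinases, through Cdc37, while Ahsa1 (Aha1) stimulates its ATPase activity, the immunophilin Fkbp4 (FKBP52) joins late complexes with steroid receptors, and Ptges3 (p23) binds the closed, ATP-bound form and is also known as the cytosolic prostaglandin E synthase. Hspa8 is the constitutive Hsp70, and Hsph1 and Hspa4 are Hsp110-type nucleotide exchange factors that release its substrates. Several of these genes are known targets of heat shock factor 1, which binds inverted GAA repeats named heat shock elements.

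In the GENCODE M21 annotation (GRCm38) all 10 are protein-coding genes: Ptges3 on chr10:128058954-128077272 (+ strand), Hsp90aa1 on chr12:110690605-110702728 (− strand), Hsp90ab1 on chr17:45567775-45573271 (− strand), Hspa8 on chr9:40800984-40810087 (+ strand), Hspa4 on chr11:53259814-53300457 (− strand), Hsph1 on chr5:149614287-149636376 (− strand), Stip1 on chr19:7020702-7039967 (− strand), Ahsa1 on chr12:87266479-87273998 (+ strand), Fkbp4 on chr6:128429735-128438677 (− strand) and Cdc37 on chr9:21133222-21149982 (− strand). Hspa8 hosts 3 small nucleolar RNA genes and Ahsa1 overlaps a miRNA gene. At 95% identity over at least 200 bases, transcripts of Hspa8 matched 6 other annotated genes, Hsp90aa1 matched 3, and Ptges3 and Ahsa1 matched 1 each. None of these copies was listed in the table, and reads that could not be placed at 1 locus had not been counted, so the levels of these 4 genes are uncertain to that extent.

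Promoter sequences (RefSeq, GRCm38.p6) were matched for 7 of the 10 genes, namely Ptges3, Hspa4, Hsph1 (2 entries), Stip1, Ahsa1, Fkbp4 and Cdc37. The 250 bases before each start were searched on both strands for a heat shock element of 2 units (GAANNTTC or TTCNNGAA), and 3 of the 7 genes held 1. It lay 151 bases before the start in Fkbp4, 170 in Cdc37, and 54 or 33 in Hsph1, depending on the entry. The same letters were found in 12.8% of 32851 promoters, the 3-unit element (GAANNTTCNNGAA or TTCNNGAANNTTC, which contains the 2-unit one) in 0.466%, and none of the 7 genes searched held the latter. The upstream sequences of Ptges3, the gene with the selected change, and of the 3 genes with an element are shown 5′ to 3′ with the element in capitals. For Ptges3 (chr10:128058732-128058931, + strand), Fkbp4 (chr6:128438707-128438906, − strand) and Cdc37 (chr9:21149985-21150184, − strand) they run from 250 to 51 bases before the start. For Hsph1 (chr5:149636351-149636380, − strand) they run from 65 to 36 bases before the start of 1 entry and from 44 to 15 before that of the other.
Ptges3: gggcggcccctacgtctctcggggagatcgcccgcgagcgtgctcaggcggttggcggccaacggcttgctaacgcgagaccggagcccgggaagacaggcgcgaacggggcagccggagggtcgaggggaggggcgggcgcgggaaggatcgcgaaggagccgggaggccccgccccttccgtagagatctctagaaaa
Fkbp4: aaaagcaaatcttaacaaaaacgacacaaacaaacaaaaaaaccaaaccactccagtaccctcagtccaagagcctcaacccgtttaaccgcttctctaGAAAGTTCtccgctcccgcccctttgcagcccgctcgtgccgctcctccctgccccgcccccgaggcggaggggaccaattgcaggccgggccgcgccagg
Cdc37: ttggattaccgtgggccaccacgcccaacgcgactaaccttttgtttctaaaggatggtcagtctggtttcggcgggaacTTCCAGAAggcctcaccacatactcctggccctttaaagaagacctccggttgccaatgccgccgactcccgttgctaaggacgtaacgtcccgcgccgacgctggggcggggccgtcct
Hsph1: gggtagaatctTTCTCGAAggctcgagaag
The element of Hsph1 and nearly the whole searched window of Ahsa1 lie within the annotated genes, that is, after a GENCODE start upstream of the RefSeq one. A match of letters is a description of these windows and not of binding.

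**Figure D1:**
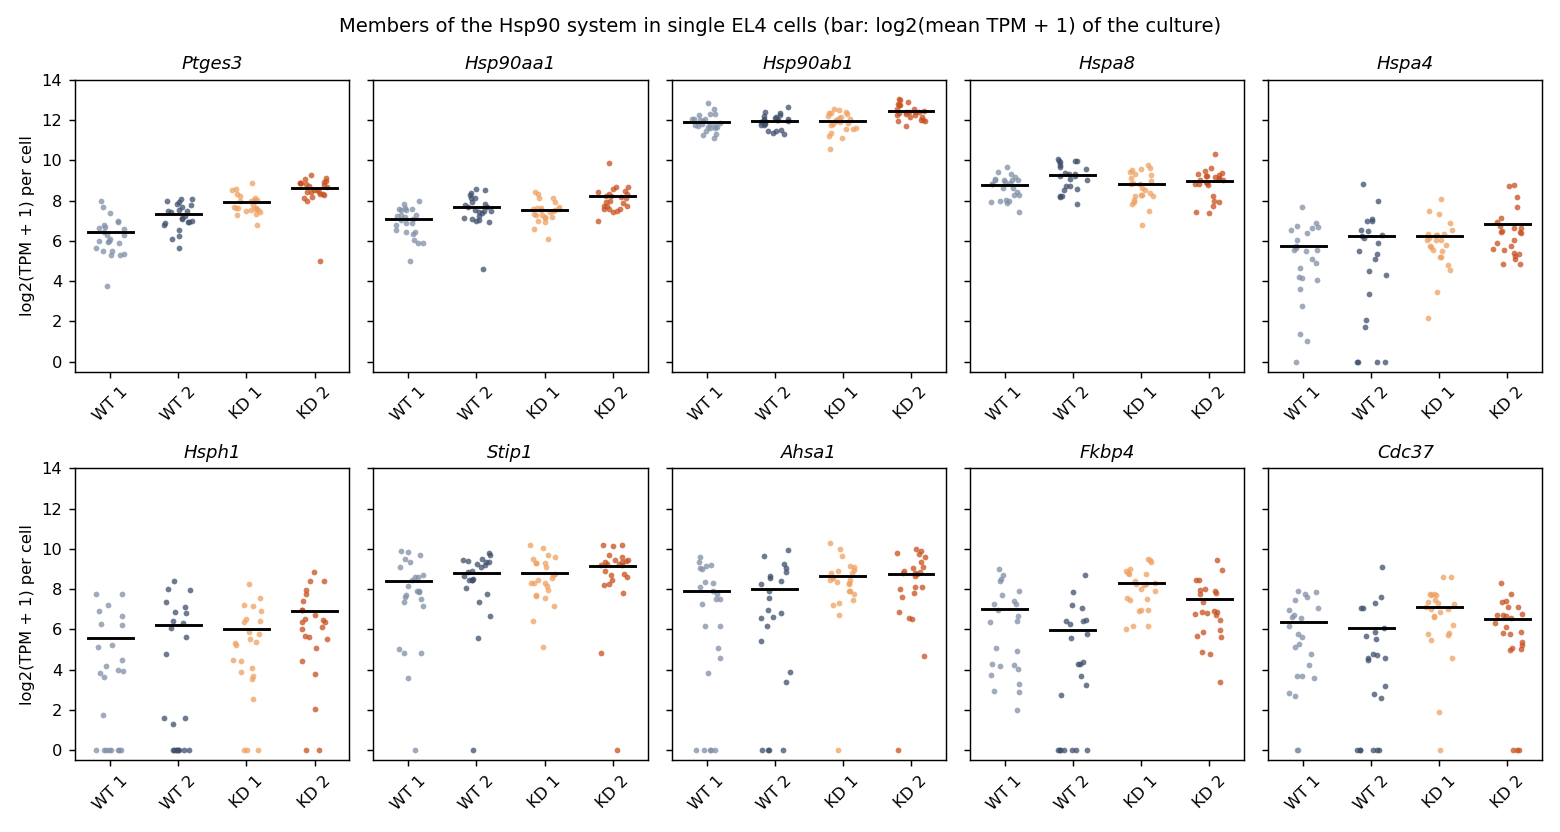
Expression of the 10 genes in single cells, with log2(TPM + 1) on the y axis and the 4 cultures on the x axis (KD, CTCF-KD). Each point is 1 cell and each bar is log2(mean TPM + 1) of the culture; the Ptges3 bars run from 6.46 in WT 1 to 8.61 in the culture labelled CTCF-KD 2, and points at 0 are cells without a read.

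Ptges3 was detected in every cell kept, and its level was higher in the CTCF-KD culture of each experiment. The mean was 86.99 ± 55.9 TPM (SD over 24 cells) in WT 1 and 159.8 ± 64.7 (23 cells) in WT 2, against 239 ± 82.02 (24 cells) in CTCF-KD 1 and 390.3 ± 122 (24 cells) in the culture labelled CTCF-KD 2. Both CTCF-KD means lay above both WT means, and WT 2 lay above WT 1. The fold was 2.74 in experiment 1 and 2.44 in experiment 2, that is, 1.45 and 1.28 on the log2(mean TPM + 1) scale. Among the 11980 genes these changes stood at percentiles 89.02 and 85.98, and the values chose the gene, so nothing is read from them.

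Most CTCF-KD cells held more Ptges3 than the typical WT cell of their experiment. The lowest, median and highest values were 12.4, 71.9 and 255 TPM in WT 1 and 109.6, 209.9 and 464 TPM in CTCF-KD 1. In experiment 2 they were 49.2, 149 and 273 TPM in WT 2 and 30.8, 387 and 623 TPM in the culture labelled CTCF-KD 2. The ranges overlapped in both experiments: 24 of 24 CTCF-KD 1 cells lay above the WT 1 median and 8 above its highest cell, and 23 of 24 cells of the culture labelled CTCF-KD 2 lay above the WT 2 median and 22 above its highest cell. Of all pairs of 1 WT and 1 CTCF-KD cell, the CTCF-KD cell was the higher in 94.4% in experiment 1 and 95.5% in experiment 2.

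The lowest cell of the culture labelled CTCF-KD 2 was also the shallowest cell kept, with 41591 reads and 3150 genes. Besides 30.8 TPM of Ptges3 it held 929 TPM of Hsp90aa1, 8565 of Hsp90ab1 and 428 of Hspa4, and no read of Ahsa1 or Cdc37. Without it, Ptges3 ranged from 254 to 623 TPM in that culture, with a mean of 406 ± 96.5 TPM (SD, 23 cells), and its lowest value still lay below the WT 2 maximum of 273 TPM.

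Neither of the cytosolic Hsp90 genes passed the test between conditions. Hsp90ab1, the constitutive isoform and the most abundant of the 10 transcripts in every culture, had means of 3852 and 3995 TPM in WT 1 and WT 2, 3961 TPM in CTCF-KD 1 and 5533 TPM in the culture labelled CTCF-KD 2. 3 of these 4 means lay close together, and the culture labelled CTCF-KD 2 stood above them. On the log2 scale experiment 1 gave a change of 0.04 and experiment 2 one of 0.47, and the mean of 0.26 ± 0.32 (SE) did not pass the test (limma over the 11980 genes with Benjamini-Hochberg adjustment, adjusted p = 0.884). Hsp90aa1, the inducible isoform, had means of 133 and 206 TPM under shLuc and 186 and 294 TPM under shCTCF. CTCF-KD 1 lay below WT 2, so the groups overlapped, although the change was positive and of like size in each experiment (0.48 and 0.51, mean 0.50 ± 0.40 SE, limma adjusted p = 0.810). The like size rests in part on the shallowest cell. Without it the mean of the culture labelled CTCF-KD 2 was 266 TPM and the mean change of Hsp90aa1 was 0.43.

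The share of Hsp90aa1 in the summed TPM of both cytosolic Hsp90 genes was 3.33% in WT 1, 4.90% in WT 2, 4.49% in CTCF-KD 1 and 5.04% in the culture labelled CTCF-KD 2. Hsp90ab1 thus accounted for most of the cytosolic Hsp90 transcript throughout. The difference in means was 0.646 percentage points (two-sided exact permutation test over 4 cultures, p = 0.667, where the smallest p the design allows is 0.333), and its direction turned to a difference of −0.140 points without WT 1. Without the shallowest cell the share in the culture labelled CTCF-KD 2 was lower, with means of 266 TPM for Hsp90aa1 and 5402 TPM for Hsp90ab1.

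Among the other co-chaperone members, Fkbp4 and Ahsa1 had the largest changes. Fkbp4 had means of 129.8 ± 148 (SD over 24 cells) and 62.8 ± 98.1 TPM (23 cells) in WT 1 and WT 2, and 314 ± 196 and 180.3 ± 166 TPM (24 cells each) in CTCF-KD 1 and the culture labelled CTCF-KD 2. Neither shCTCF value reached down to the shLuc values, and in each condition experiment 2 had the lower level. The change was 1.27 and 1.51 in the 2 experiments (mean 1.39 ± 0.49 SE), with an unadjusted p of 0.0271 that did not pass after adjustment over all genes (limma, adjusted p = 0.610).

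Ahsa1 had the most similar changes in both experiments among the 10 genes. Its means were 239 ± 244 (SD over 24 cells) and 253 ± 277 TPM (23 cells) under shLuc and 406 ± 285 and 434 ± 298 TPM (24 cells each) under shCTCF. The WT cultures differed by 0.08 and the CTCF-KD cultures by 0.10 on the log2 scale, and the conditions did not overlap. The change was 0.76 in experiment 1 and 0.77 in experiment 2 (mean 0.77 ± 0.29 SE, unadjusted p = 0.0368), and it did not pass the test either (limma, adjusted p = 0.627).

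Stip1 had means of 340.5 and 452 TPM under shLuc and 454 and 575 TPM under shCTCF, so that CTCF-KD 1 lay just above WT 2. Its change was 0.38 ± 0.32 (SE, limma adjusted p = 0.815). Cdc37 had means of 80.99 and 66.6 TPM under shLuc and 138 and 89.4 TPM under shCTCF. Its change was 0.59 ± 0.41 (SE, limma adjusted p = 0.784), and the culture labelled CTCF-KD 2 stood close above WT 1.

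Of the Hsp70 and Hsp110 members, Hspa8 alone was not higher in both experiments. Its means were 429 and 624 TPM under shLuc and 449.5 and 506 TPM under shCTCF, with both CTCF-KD values between the WT values. The change was 0.07 in experiment 1 and −0.30 in experiment 2 (mean −0.12 ± 0.32 SE, limma adjusted p = 0.957), and it was 0.15 without WT 2. Hspa4 had means of 52.2 and 74.4 TPM against 73.6 and 114 TPM, and Hsph1 had 46.3 and 73.2 TPM against 63.9 and 118 TPM. In both, CTCF-KD 1 lay between the WT cultures, so the groups overlapped, and the changes of 0.55 ± 0.44 and 0.57 ± 0.49 (SE) did not pass the test (limma adjusted p = 0.810 and 0.820).

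**Figure D2:**
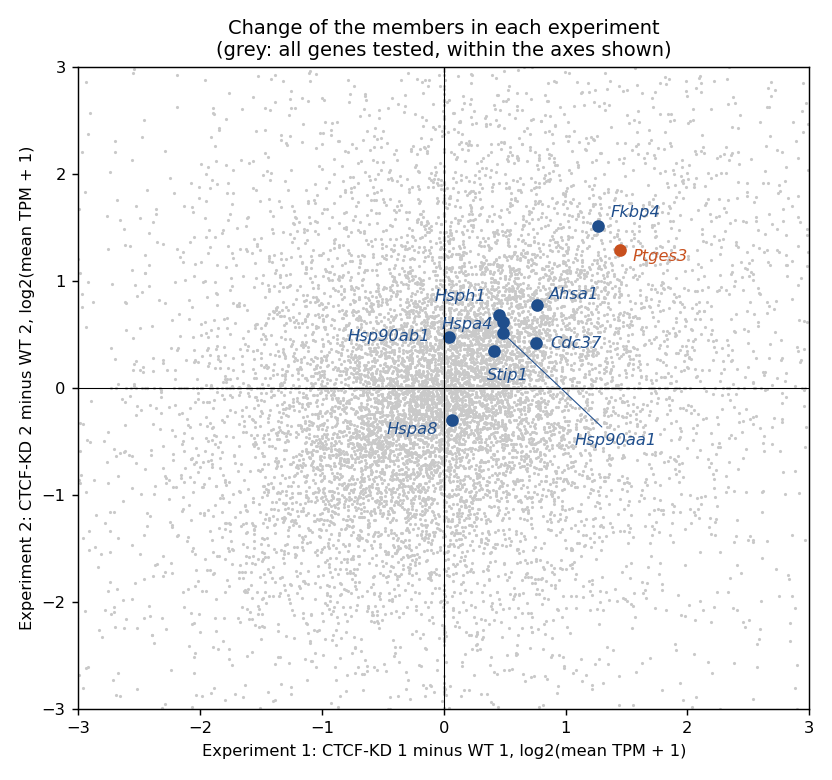
Change of each gene on the log2(mean TPM + 1) scale in experiment 1 (x axis, CTCF-KD 1 minus WT 1) against experiment 2 (y axis, the culture labelled CTCF-KD 2 minus WT 2). Ptges3 is in orange, the other 9 genes are in blue, and grey points are the genes tested that lie within the axes; Hspa8, at 0.07 and −0.30, is the member outside the upper right quadrant.

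Across the 10 genes, 9 were higher in CTCF-KD in both experiments, or 8 of 9 without Ptges3, where 30.1% of the genes tested and 32.1% of 7843 more highly expressed genes (mean log2(TPM + 1) above 1) were so. Both shCTCF values lay above both shLuc values for 5 genes (Ptges3, Stip1, Ahsa1, Fkbp4 and Cdc37), or 4 of 9 without Ptges3, against 19.9% of the genes tested and 20.2% of the more highly expressed ones. No member had both shCTCF values below both shLuc values, where 16.9% of the genes tested did. The median change of the 9 genes was 0.55, and that of all genes tested was 0.04. No member passed at an adjusted p of 0.05, as was true of the whole table (0% of 11980 genes, limma). At an unadjusted p under 0.05, 2 of the 9 (Ahsa1 and Fkbp4) were higher, where 4.79% of genes were higher, that is, 574 genes with 338 lower. Members and partners had been chosen with earlier results known, so these counts describe the list. On RPM of the recovered reads (not divided by length) in place of TPM, 8 of the 10 did not overlap (21.6% of genes), with Hsp90aa1, Hsp90ab1, Hspa4 and Hsph1 added and Cdc37 lost, and in cells with 4500 to 6500 genes 4 of the 10 did not (17.7% of genes), with Stip1 lost. With WT 2 left out 10 did not overlap (39.2% of genes), and with CTCF-KD 1 left out 9 (37.8%).

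Levels within the system were ordered in TPM, and thus per transcript length. Hsp90ab1 ranked first and Ahsa1 at rank 4 in all 4 cultures. Hspa8 stood above Stip1 in both WT cultures and below it in both CTCF-KD cultures, but their ranges over cultures (429 to 624 and 340.5 to 575 TPM) overlapped. Ptges3 (86.99 to 390.3 TPM), Hsp90aa1 (133 to 294 TPM) and Fkbp4 (62.8 to 314 TPM) followed and overlapped one another, and Cdc37 (66.6 to 138 TPM), Hspa4 (52.2 to 114 TPM) and Hsph1 (46.3 to 118 TPM) had the lowest means over the 4 cultures and could not be ordered, although in WT 2 Fkbp4 was lower than all 3. The 10 genes together took 0.539% and 0.597% of the TPM in WT 1 and WT 2 and 0.628% and 0.823% in CTCF-KD 1 and the culture labelled CTCF-KD 2.

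**Figure D3:**
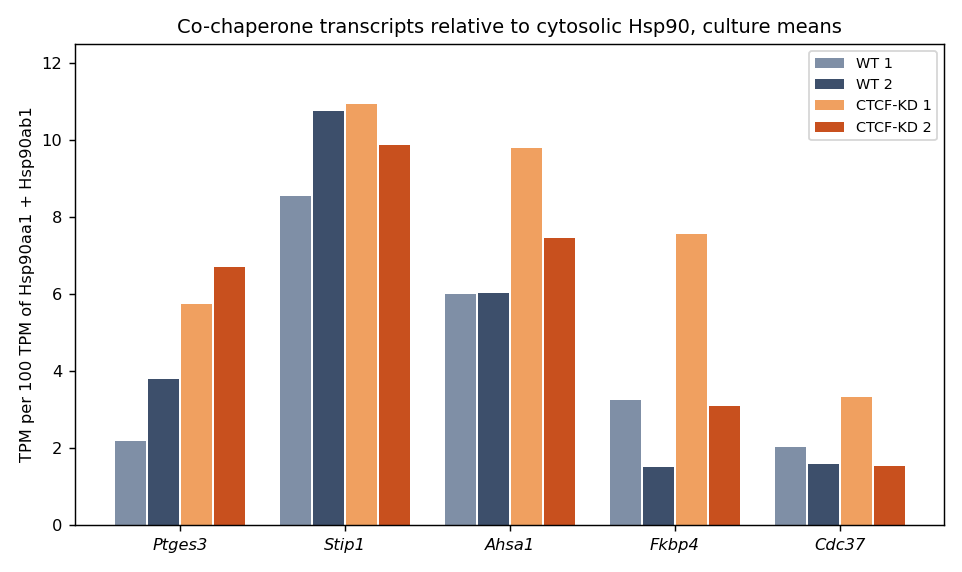
Mean TPM of 5 co-chaperone genes per 100 TPM of Hsp90aa1 and Hsp90ab1 together (y axis), with 1 bar per culture. Ptges3 runs from 2.18 in WT 1 to 6.70 in the culture labelled CTCF-KD 2, whereas Stip1 stays between 8.55 and 10.9.

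Relative to cytosolic Hsp90, the 5 co-chaperone transcripts Ptges3, Stip1, Ahsa1, Fkbp4 and Cdc37 together amounted to 22.02 and 23.7 TPM per 100 TPM of Hsp90 in WT 1 and WT 2, and to 37.4 and 28.6 in CTCF-KD 1 and the culture labelled CTCF-KD 2. Without Ptges3, the selected gene, the sum was 19.8 and 19.9 in WT and 31.6 and 21.9 in CTCF-KD, so in experiment 2 most of the gap was Ptges3. Summed Hsp90 was 3984 and 4201 TPM in the WT cultures, 4147 in CTCF-KD 1 and 5827 in the culture labelled CTCF-KD 2. Ptges3 itself accounted for 2.18 and 3.80 per 100 in WT and 5.75 and 6.70 in CTCF-KD, and Ahsa1 for 6.00 and 6.03 in WT and 9.79 and 7.45 in CTCF-KD. Fkbp4, by contrast, overlapped on this scale (3.26 and 1.49 in WT, 7.56 and 3.09 in CTCF-KD), as did Stip1 (8.55 and 10.8, then 10.9 and 9.87) and Cdc37 (2.03 and 1.59, then 3.32 and 1.53). The sum of the exchange factor genes Hsph1 and Hspa4 per 100 TPM of Hspa8 was 22.95 and 23.6 in WT and 30.6 and 45.8 in CTCF-KD (two-sided exact permutation test, p = 0.333, the smallest the design allows).

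**Figure D4:**
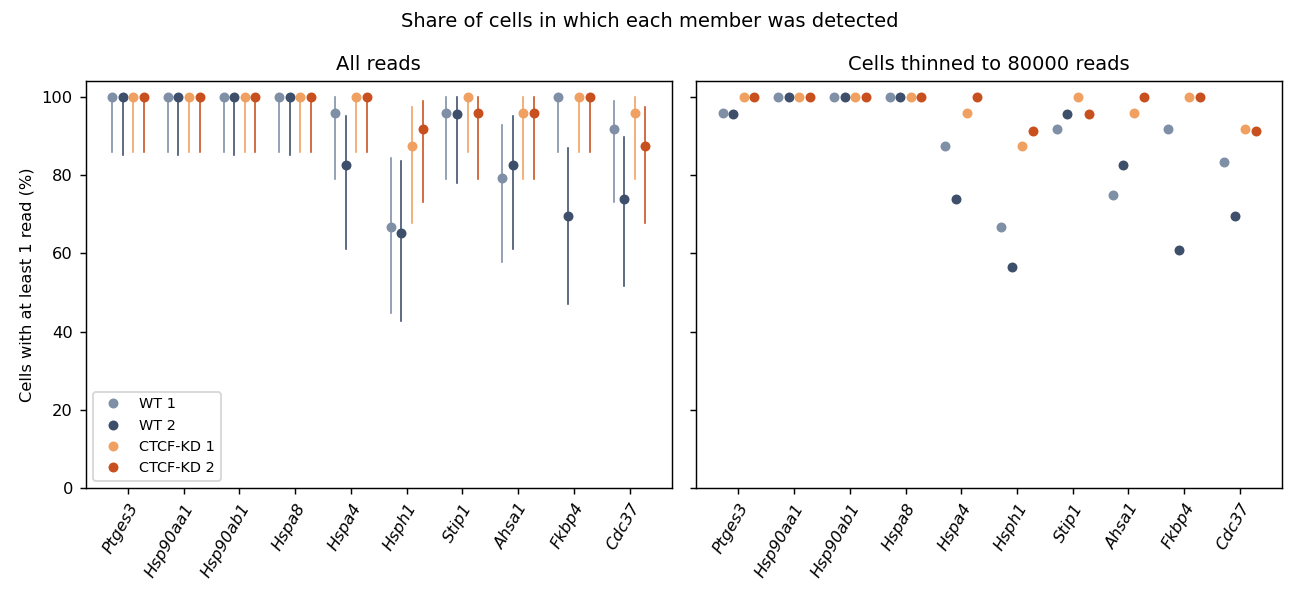
Share of cells with at least 1 read of each gene (y axis, percent) in the 4 cultures, with all reads (left; lines, exact 95% binomial intervals) and after thinning each cell to 80000 reads (right). Hspa4, Hsph1 and Ahsa1 have a higher share in both CTCF-KD cultures than in both WT cultures in each panel. Of all genes tested, 36.2% (left) and 39.4% (right) do so. Hsp90aa1, Hsp90ab1 and Hspa8 stay at 100%.

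6 of the genes were missed in some cells, and the misses fell mostly in WT cells. Hsph1 was detected in 16 of 24 WT 1 cells (66.7%, exact Clopper-Pearson 95% interval 44.7 to 84.4%) and 15 of 23 WT 2 cells (65.2%, 42.7 to 83.6%), against 21 of 24 CTCF-KD 1 cells (87.5%, 67.6 to 97.3%) and 22 of 24 cells of the culture labelled CTCF-KD 2 (91.7%, 73.003 to 98.97%). Ahsa1 was detected in 19 of 24 and 19 of 23 WT cells and in 23 of 24 cells of each CTCF-KD culture. Fkbp4 was detected in every cell of WT 1 and of both CTCF-KD cultures but in 16 of 23 cells of WT 2 (69.6%, 47.1 to 86.8%). These intervals cover counting error alone, and they overlapped between WT and CTCF-KD for Hsph1.

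Both CTCF-KD cultures had a higher share of detected cells than both WT cultures for 3 members (Hspa4, Hsph1 and Ahsa1), against 36.2% of all genes tested. After thinning the count was 6 of 10 (Ptges3, Fkbp4 and Cdc37 added), against 39.4% of genes. Genes seen in every cell, such as Hsp90aa1, Hsp90ab1 and Hspa8, cannot rise by this measure. The larger number of genes detected per CTCF-KD cell moved in the same direction, and its part in these shares was not tested.

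Cell-to-cell variation was measured as the coefficient of variation (CV), the SD divided by the mean of log2(TPM + 1) among all cells of WT or of CTCF-KD, with a gene called decreased or increased where the difference CTCF-KD minus WT lay beyond 1 SD (0.406) of its mean over 7843 genes (−0.279). No member was called decreased, where 11.3% of genes were, and none was called increased, where 7.68% of genes were. A decrease call needed a difference below −0.685, which a gene with a WT CV smaller than that size cannot reach. Among the members only Hsph1 had a larger WT CV, so nothing is read from the absence of decrease calls. The CV was lower in CTCF-KD for 8 of the 10 members, as it was for 81.5% of the 7843 genes. In WT and CTCF-KD it was 0.857 and 0.445 for Hsph1, 0.559 and 0.181 for Fkbp4, 0.555 and 0.249 for Ahsa1, and 0.493 and 0.198 for Hspa4. For Ptges3 the CV was 0.139 in WT and 0.0901 in CTCF-KD. For Hsp90ab1, at 0.0317 and 0.0404, and Hspa8, at 0.0747 and 0.0829, it was slightly higher in CTCF-KD. Differences between the pooled cultures of a condition enter this CV. Within experiment 1 and experiment 2 the difference was −0.086 and 0.005 for Ptges3, 0.006 and −0.0002 for Hsp90ab1, and 0.020 and 0.008 for Hspa8. The experiment 2 value of Ptges3 rests on the shallowest cell. In the culture labelled CTCF-KD 2 the SD of log2(TPM + 1) of Ptges3 was 0.815 with that cell and 0.343 without it. In WT 2 it was 0.654. All members lay below the median CV of all genes (1.07 in WT and 0.801 in CTCF-KD), with Hsp90ab1 the least variable of the 10.

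Within a culture the 10 genes varied together only weakly. Over the 45 pairs, the Pearson r of log2(TPM + 1) over 23 or 24 cells, averaged over the 4 cultures, had a median of 0.139 and ran from −0.222 (Hsp90aa1 with Cdc37) to 0.370 (Ptges3 with Ahsa1). The cells of a culture share a circuit and differ in depth and in the number of genes detected, and with the latter removed the median was 0.0944. Ptges3 with Ahsa1 had an r of 0.33, 0.32, 0.10 and 0.73 in WT 1, WT 2, CTCF-KD 1 and the culture labelled CTCF-KD 2, but the last of these was −0.00278 without the shallowest cell, and the mean then 0.187. Without that cell Ptges3 was most like Hsp90aa1 among the members, with a mean r of 0.346 (0.30, 0.40, 0.57 and 0.11), which had been 0.178 with it. These values are descriptions in sparse data.

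Of 7842 other genes, the 5 whose level was most like that of Ptges3 over cells were Psma7, a proteasome subunit gene, Kars, the lysyl-tRNA synthetase gene, Cyb5b, an outer mitochondrial membrane cytochrome gene, Cnbp, a nucleic acid binding protein gene, and Rpf2, a ribosome assembly factor gene. The mean r over the 4 cultures was 0.564 for Psma7, 0.545 for Kars, 0.538 for Cyb5b, 0.523 for Cnbp and 0.518 for Rpf2. The highest ranking members were Ahsa1 at 117, Stip1 at 177 and Hspa8 at 263, but without the shallowest cell they were Hsp90aa1 at 58, Fkbp4 at 140 and Stip1 at 153, with Ahsa1 at 935. The shallowest cell, in which Kars, Cyb5b and Rpf2 had no read, weighed on this order as well: without it the mean r was 0.436, 0.383, 0.447, 0.354 and 0.441 for the same genes, and the first place went to Bub1 (0.459), a gene named after its values were seen.

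**Figure D5:**
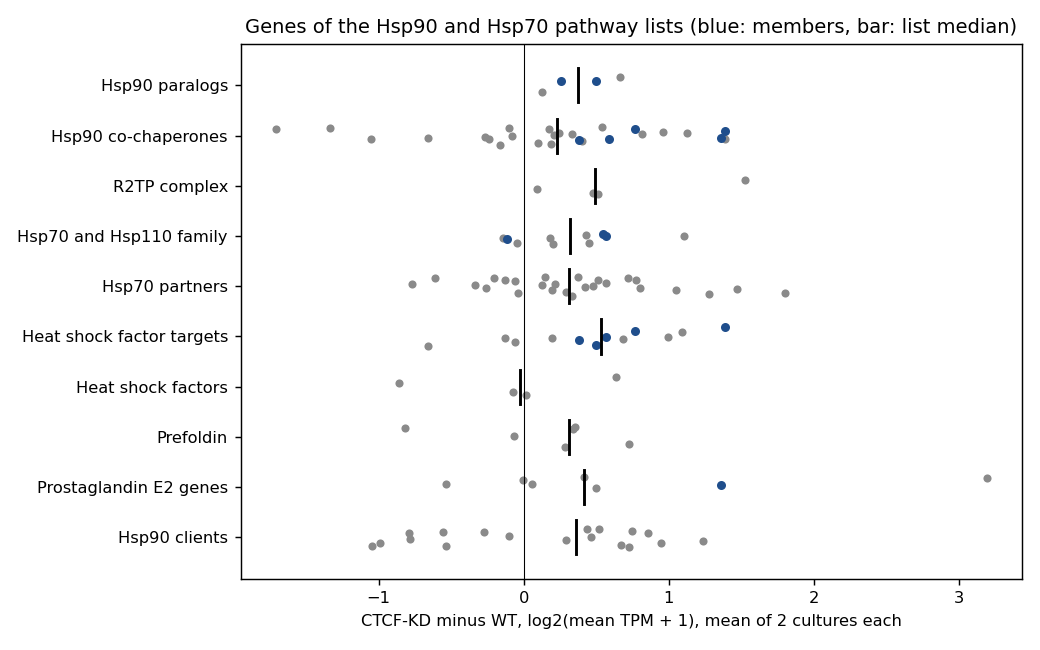
Change in CTCF-KD against WT on the log2(mean TPM + 1) scale (x axis) for the tested genes of 10 lists around Hsp90 and Hsp70 (y axis), with members in blue and the list median as a bar. The medians lie between −0.03 for the heat shock factors and 0.53 for the heat shock factor targets.

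The wider pathway was described from lists of related genes, counted in the same way, with all genes tested as background (30.1% higher and 26.7% lower in both experiments, 19.9% with both shCTCF values above both shLuc values). None of the genes listed passed at an adjusted p of 0.05 (limma). Members that belong to a list are counted in it again. Of 26 Hsp90 co-chaperone genes, 13 were higher in both experiments and 5 lower (median 0.23). For 11 the conditions did not overlap, with the shCTCF values higher. The members Ptges3, Stip1, Ahsa1, Fkbp4 and Cdc37 are among both the 13 and the 11, so these counts in part repeat the members. Ppid, the immunophilin cyclophilin 40, had the largest change in this list, from 46.3 and 58.3 TPM in WT to 96.2 and 197 TPM in CTCF-KD (1.39 ± 0.48 SE, limma adjusted p = 0.610). Fkbp5, the immunophilin FKBP51 and a known glucocorticoid-induced gene, had the most negative, from 21.9 and 104.5 TPM to 18.9 and 10.4 TPM (−1.71 ± 0.86 SE, limma adjusted p = 0.702), with WT 2 far above the other 3 cultures. The change of Fkbp5 was −0.20 in experiment 1 and −3.21 in experiment 2. Ppid and Fkbp5 were named as the extremes of this list, so nothing is read from their opposite signs.

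Of the Hsp90 paralogs, 3 of 4 were higher in both experiments (median 0.38). Trap1, the mitochondrial paralog, went from 323 and 214 TPM in WT to 363 and 481 TPM in CTCF-KD (0.67 ± 0.35 SE, limma adjusted p = 0.725), while Hsp90ab1 had the smallest change among the 3. Hsp90b1, the paralog of the endoplasmic reticulum, did not move the same way in both (−0.02 and 0.26). In the R2TP complex, an Hsp90 partner in the assembly of large complexes, 3 of 4 genes were higher in both experiments (median 0.50). Its ATPase gene Ruvbl1 had 53.9 and 30.2 TPM in WT and 133 and 105 TPM in CTCF-KD (1.53 ± 0.46 SE, limma adjusted p = 0.585), and Rpap3 had a change of 0.48 ± 0.54 (SE).

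Of 10 tested genes of the Hsp70 and Hsp110 family, 6 were higher in both experiments and none lower in both (median 0.32). Hyou1, an Hsp110-type chaperone of the endoplasmic reticulum, had 6.47 and 5.14 TPM in WT and 13.3 and 13.9 TPM in CTCF-KD, and Hspa13 had the smallest change among those 6 (0.18 ± 0.93 SE). The stress-inducible Hspa1a and Hspa1b were listed at 0 in every cell. They are near-identical to each other, and as reads that matched both had not been counted, nothing is read from these zeros. Of 26 tested Hsp70 partners, the J-domain and exchange factor genes, 13 were higher in both experiments and 3 lower (median 0.31), from Hspbp1, an exchange factor, at 1.80 ± 0.58 (SE, limma adjusted p = 0.597) to Dnajc5 at −0.77 ± 0.35 (SE, limma adjusted p = 0.673).

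Of 12 tested heat shock factor targets, which hold 5 of the members, 9 were higher in both experiments, 1 was lower and for 5 both shCTCF values lay above both shLuc values (median 0.53). Outside the members, Hspd1 and Hspe1, the mitochondrial chaperonin and its lid, went from 103 and 166 TPM to 201 and 343 TPM and from 163 and 159 TPM to 235 and 286 TPM (0.99 ± 0.42 and 0.68 ± 0.32 SE, limma adjusted p = 0.656 and 0.688). They were named after their values were seen, and the other genes among the 5 are the members Stip1, Ahsa1 and Fkbp4. Dnaja1 and Cacybp were also higher in both experiments, but the conditions overlapped. Dnajb1 (−0.80 and 0.68) and Bag3 (0.61 and −0.87) changed sign between experiment 1 and experiment 2. Chordc1, a co-chaperone gene, was the one lower in both (−0.66 ± 0.57 SE, limma adjusted p = 0.820), and the small heat shock gene Hspb1 was listed at 0. The heat shock factor genes showed no common direction: none of the 4 was higher in both experiments and Hsf5 was lower (−0.86 ± 0.91 SE), while Hsf1 had 74.02 and 129 TPM in WT and 141 and 69.7 TPM in CTCF-KD, a change of 0.92 in experiment 1 and −0.88 in experiment 2.

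Of 6 genes of prefoldin, a chaperone of nascent actin and tubulin, 3 were higher in both experiments and 2 lower (median 0.31). Pfdn5 had 1336 and 1042 TPM in WT and 836 and 535 TPM in CTCF-KD (−0.82 ± 0.34 SE, limma adjusted p = 0.656), and Pfdn2 had a change of 0.73 ± 0.57 (SE). Of 18 tested Hsp90 clients, 7 were higher and 4 lower in both experiments (median 0.36), from Tert (1.23 ± 0.97 SE), at 0 in WT 1 and at most 4.63 TPM elsewhere, to Akt2 (−1.05 ± 0.86 SE), and neither passed the test (limma adjusted p = 0.799 and 0.814). In the T cell marker list, which was not part of the system, 5 of 9 genes were lower in both experiments and none higher (median −0.31), from Ptprc at −0.31 ± 0.38 to Cd3g at −0.66 ± 0.30 (SE).

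The prostaglandin E2 genes were listed because the Ptges3 product is also counted among the prostaglandin E synthases. Of 7 tested, 3 were higher in both experiments (the selected Ptges3, Ptges2, and Ptger1 at 10.5 TPM or less) and 1 lower (median 0.41). Ptgs1, Ptgs2, Hpgd and Ptger3 were listed at 0 TPM in every culture. Ptges2, the membrane-associated synthase gene, had 5.55 and 4.61 TPM in WT and 25.3 and 116 TPM in CTCF-KD, with reads in 3 of 24 and 3 of 23 WT cells and in 12 and 11 of 24 CTCF-KD cells. The change of 3.195 ± 0.89 (SE) did not pass the test (limma, unadjusted p = 0.0102, adjusted p = 0.585). Ptges, the inducible synthase gene, was close to the limit of detection, with reads in 1, 3, 0 and 2 cells of WT 1, WT 2, CTCF-KD 1 and the culture labelled CTCF-KD 2.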

How the data were processed

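RNA of single EL4 cells, captured with Fluidigm C1 circuits, was amplified with the SMARTer protocol and sequenced. The authors aligned the reads to GRCm38 with STAR, counted uniquely mapped reads per gene with HTSeq and deposited TPM values per cell, which are normalized for transcript length and to the same total in each cell, so raw counts were not used as deposited. Cells with fewer than 3000 genes above 0 were left out. Whole reads per gene and cell were recovered from the TPM steps (100% of 9602 genes in at least 10 cells, tolerance 0.001 reads) and used for depth, for detection and for thinning to 80000 reads, which left out 1 shallower cell.

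TPM was averaged over the cells of each culture, and log2(mean TPM + 1) was compared between 2 WT and 2 CTCF-KD cultures with limma 3.58.1 (R 4.3.3, eBayes with trend) over 11980 genes (those reaching log2(TPM + 1) above 1 in 2 or more cells), with Benjamini-Hochberg adjustment at 0.05. On simulated data, the cells of every culture were drawn again from the pooled WT cells, and a large and a smaller change were applied. Differences between cultures, which the real data hold, were thus not simulated. The model called most of the large changes and none of the smaller ones. The smaller change exceeded the main log2 change of every tested member, so failure to pass does not show that a member was unchanged. The model also called unchanged genes seen in few cells, so calls among such genes are not relied on. The study itself used each cell as a replicate, which was not done here. Fold changes on this scale understate the change of low genes. Shares were given exact Clopper-Pearson 95% intervals. Cultures with the same number belong to the same experiment, and their deviations from the condition means correlated with r = 0.275 over 7843 genes. Near-identical transcripts were searched with blastn 2.17.0.

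The genes named were the 10 members, Ctcf, the 5 genes most like Ptges3 and, from each list, the genes with the largest and the smallest change among those moving the same way in both experiments. The members and lists were chosen with earlier results of these data known. Alternatives were other scales, pseudocounts, filters, scalings and cell sets, a replicate block and leaving out each culture.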

Additional observations from a re-analysis of the deposited data

Results flagged for a closer look

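Hspa8, the constitutive Hsp70 gene, had changes of opposite sign in the 2 experiments. Its change on the log2(mean TPM + 1) scale was 0.0661 in experiment 1 and −0.30 in experiment 2, and with 1 culture per condition in each experiment this difference was not tested. Both CTCF-KD means (449.5 and 506 TPM) lay between the WT means (429 and 624 TPM).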

How the results depend on the processing

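Of 126 log2 changes of the 9 tested members under alternatives, 125 kept their direction and their side of the threshold, and Ptges3, which was not tested, kept its direction in 14 of 14. The exception was Hspa8, which ran from −0.39 to 0.15 when 1 culture was left out (0.15 without WT 2), and the difference in the Hsp90aa1 share ran from −0.140 to 1.43 percentage points when 1 culture was left out (−0.140 without WT 1). The number of members whose shCTCF values both exceeded the shLuc values was 8 on RPM (21.6% of all genes) and 7 with median-of-ratios scaling (19.9%). It was 7 with the mean over cells of log2(TPM + 1) (36.2%) and 4 in cells with 4500 to 6500 genes (17.7%). When 1 culture was left out it ran from 5 to 10, where 31.3% to 39.2% of all genes were so. The number with a higher share of detected cells was 6 after thinning to 80000 reads (39.4% of genes). No member was called by limma under any of 14 alternatives. With the replicate block, which pairs the cultures of an experiment, 0 members and 0 genes were called, and Fkbp4 had the lowest adjusted p among the members (0.228), so the block changed no call. With the mean over cells of log2(TPM + 1) as the culture value, limma called 46 genes (44 higher and 2 lower, against 0 before), none of them a member, the median of all genes moved to 0.23, and the changes of Fkbp4 and Ahsa1 were 2.56 and 2.01 (adjusted p = 0.121 and 0.0835). Leaving out the shallowest cell was chosen after seeing the data. Where 1 culture was left out, the lone culture of that condition was assumed to vary like the others. The causes were not tested. In single cells a missed read does not show absence.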
